A study of Mus musculus with 6 samples.

Results

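The 9 genes described here write, erase or read methyl groups on cytosine in DNA: the DNA methyltransferase genes Dnmt1, Dnmt3a and Dnmt3b, the regulator Dnmt3l, the maintenance cofactor Uhrf1, the dioxygenase genes Tet1, Tet2 and Tet3, and the methyl-CpG reader Mbd2. They were taken by symbol from a deposited table of 16440 genes, in which all 9 were listed. RNA sequencing covered 3 libraries of normal myeloid progenitors (MPs) and 3 libraries of c-Kit+ acute promyelocytic leukemia (APL) progenitors, all from mice of strain FVB N/J. Values of single libraries are listed in the order of replicates 1 to 3. The MPs were Lin-Sca-1-c-Kit+ bone marrow (BM) cells without a transgene or drug treatment, a gate that leaves out mature blood cells and Sca-1+ stem cells. The APL cells arose in hMRP8-PML/RARα transgenic mice, in which a human promoter active in myeloid cells drives the leukemic fusion gene, were marked with GFP by the MigR1 retrovirus, were expanded by transplantation into syngeneic recipients and were sorted as GFP-labeled c-Kit+ cells. The labels give no mouse ages. The series calls the 3 libraries of a group biological replicates, but whether the APL libraries came from separate primary leukemias is not stated, so the p-values measure the spread between these libraries.

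DNA methylation in mammals lies mostly on CpG, a cytosine followed by a guanine. DNMT1 copies the marks onto the new strand after replication, and UHRF1 brings it to half-methylated sites. DNMT3A and DNMT3B set new marks, while DNMT3L has no catalytic activity of its own, stimulates both enzymes and is known mainly from germ cells and early embryos. TET proteins oxidize 5-methylcytosine, which leads to its loss, and MBD2 binds methylated CpG and recruits the NuRD repressor complex. In blood, loss of DNMT3A or TET2 function is a known event of myeloid leukemia and clonal hematopoiesis.

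In c-Kit+ APL progenitors the maintenance genes Dnmt1 and Uhrf1 differed by at most 1.14-fold from MPs, whereas the genes for new methylation and for oxidation changed in opposite directions within each family. Dnmt3l (55.4-fold) and Tet2 (1.70-fold) rose, and Tet1 (39.6-fold), Dnmt3a (3.43-fold) and Dnmt3b (2.85-fold) fell. Dnmt1, Uhrf1, Tet3 and Mbd2 did not pass. A gene was called at a Benjamini-Hochberg adjusted p under 0.05 over all 14595 genes tested and a fold change over 1.5, with limma on log2(scaled fragments + 1). All 9 genes had a value of at least 1 in every library and were tested. The background of this comparison is high: 21.7% of genes tested were called higher, 24.4% lower and 46.1% in either direction, against 5 of these 9. At an unadjusted p the same 2 and 3 members were called, where 22.1% of genes were higher and 24.8% lower. The median of the absolute log2 fold change was 0.77 over the 9 genes and 0.59 over all genes tested. For 7 of the 9 the values of the groups did not overlap, where 70.9% of genes tested were separated in this way. In bulk libraries fewer cells of a type and less RNA per cell cannot be told apart.

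Levels between genes are compared below in FPKM (fragments per length of transcript and per mapped fragments of the library), and changes are given on scaled fragments. These are estimated fragments that had been multiplied by a factor of each library before deposit, and a single fragment was worth between 0.867 and 1.23 of them. Totals before scaling lay between 20608715 and 28382785 fragments. MP library 3 stood apart from the other MP libraries, with a median absolute log2 difference of 0.241 and 0.246 from libraries 1 and 2, which differed from each other by 0.102. It was lower in long transcripts: in the 2317 genes with the longest transcripts, which include Dnmt1, Dnmt3a, Dnmt3b, Tet2 and Tet3, its median log2 difference from libraries 1 and 2 was −0.14, against 0.33 in the 2317 with the shortest. Member results that rest on this library are given with and without it. Of 4 surface genes used to sort or divide myeloid progenitors, 2 were called lower and 2 higher. Kit was at 72.4 ± 1.96 FPKM in MPs and 40.4 ± 0.623 in APL progenitors (SD, n = 3 each). Cd34, a marker of early progenitors named here after its values were seen, was 79.5-fold lower in APL progenitors, at 1.15 ± 0.11 against 94.5 ± 15.4 FPKM. Ly6a, which encodes Sca-1, was low, at 1.36 ± 0.355 and 2.18 ± 0.175 FPKM. Its call as higher (adjusted p = 0.043 from limma) was lost under 7 of the alternatives described below. The Fc receptor gene Fcgr3, also named after its values were seen, was at 21.7 ± 3.10 and 81.8 ± 5.77 FPKM. The part of these differences in the members' results was not tested.

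**Figure D1:**
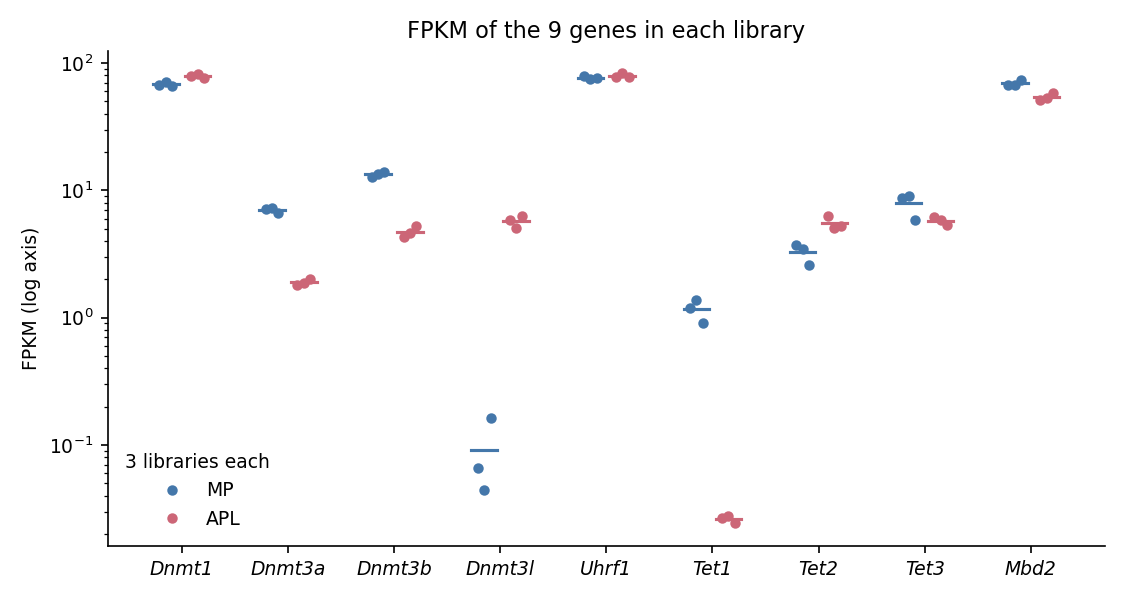
FPKM of the 9 genes on a log axis, with a point for each of the 3 MP libraries (blue) and 3 APL libraries (red) and a bar at the mean. Dnmt3l is the lowest of the 9 genes in MPs and Tet1 is the lowest in APL progenitors, where Dnmt3l lies in the middle of the range. Dnmt1, Uhrf1 and Mbd2 sit between 51.5 and 83.0 FPKM in every library.

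The sequences around the starts of the 5 genes that passed the test are shown because these starts differ widely in CpG content, the substrate of the family itself. Each covers 250 bases before to 50 bases after a RefSeq transcript start on GRCm38.p6, printed 5′ to 3′ on the strand of the gene with every CpG in capitals. The positions are chr10:78042037-78042336 (plus strand) for Dnmt3l, chr10:62887275-62887574 (minus) for Tet1, chr3:133544341-133544640 (minus) for Tet2, chr12:3806730-3807029 (plus) for Dnmt3a and chr2:153649199-153649498 (plus) for Dnmt3b.
Dnmt3l: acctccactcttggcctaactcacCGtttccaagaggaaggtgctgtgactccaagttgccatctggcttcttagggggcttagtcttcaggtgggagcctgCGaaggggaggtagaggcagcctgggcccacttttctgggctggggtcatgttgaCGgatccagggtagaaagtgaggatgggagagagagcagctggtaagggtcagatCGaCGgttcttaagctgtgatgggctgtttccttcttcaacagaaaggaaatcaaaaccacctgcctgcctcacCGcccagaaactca
Tet1: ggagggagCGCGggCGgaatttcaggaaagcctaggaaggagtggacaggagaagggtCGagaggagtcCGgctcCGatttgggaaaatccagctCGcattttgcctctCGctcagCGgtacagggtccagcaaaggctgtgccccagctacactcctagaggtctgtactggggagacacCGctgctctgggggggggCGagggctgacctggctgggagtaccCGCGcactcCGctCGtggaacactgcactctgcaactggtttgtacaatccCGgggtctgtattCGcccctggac
Tet2: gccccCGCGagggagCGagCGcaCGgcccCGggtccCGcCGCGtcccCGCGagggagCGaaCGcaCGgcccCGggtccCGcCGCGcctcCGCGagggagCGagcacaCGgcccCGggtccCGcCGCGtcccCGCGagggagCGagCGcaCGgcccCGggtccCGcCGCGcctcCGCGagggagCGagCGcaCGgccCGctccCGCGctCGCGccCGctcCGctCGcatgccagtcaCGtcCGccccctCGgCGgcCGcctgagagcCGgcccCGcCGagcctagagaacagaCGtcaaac
Dnmt3a: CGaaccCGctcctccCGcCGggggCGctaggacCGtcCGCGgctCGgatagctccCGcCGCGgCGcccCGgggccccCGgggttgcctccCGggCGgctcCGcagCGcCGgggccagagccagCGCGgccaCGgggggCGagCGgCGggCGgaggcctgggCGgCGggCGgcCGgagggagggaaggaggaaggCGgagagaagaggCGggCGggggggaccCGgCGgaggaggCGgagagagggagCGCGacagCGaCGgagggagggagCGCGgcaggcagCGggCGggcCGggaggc
Dnmt3b: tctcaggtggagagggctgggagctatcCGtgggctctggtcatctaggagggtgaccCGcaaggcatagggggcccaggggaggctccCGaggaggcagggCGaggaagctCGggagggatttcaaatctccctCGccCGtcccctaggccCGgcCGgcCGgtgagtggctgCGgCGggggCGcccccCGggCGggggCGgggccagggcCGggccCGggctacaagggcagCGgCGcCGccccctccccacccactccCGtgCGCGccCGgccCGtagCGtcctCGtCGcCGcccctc
The Dnmt3l start held 6 CpG, and 52.1% of the 32851 RefSeq starts of this length held more. RefSeq lists further Dnmt3l starts downstream with 4 and 3 CpG. Tet1 held 17 CpG, with 29.7% of starts above it. Dnmt3b held 30 (10.6% above), Dnmt3a 46 (1.44%) and Tet2 57 (0.11%). RefSeq lists further Dnmt3a starts with 47 and, inside the locus, 18 CpG (28.1% above), the latter close to Tet1. Which start was used in these cells was not tested. The 2 genes with the largest changes thus had the fewest CpG of these 5 starts, which is a description of 5 windows. The RefSeq start of Tet1 lies upstream of the Tet1 locus of the deposited table, which ends at 62880014.

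Short motifs were searched on both strands of the 15 RefSeq start windows of the members other than Mbd2. The motif AGGTCA, only a part of a retinoid receptor element, is held by 16.3% of all starts. It was found in the Tet1 window, in the internal Dnmt3a window (chr12:3891494-3891793) and in the downstream Uhrf1 window. Full retinoid receptor elements were not searched for. The E2F motif TTCCCGCC (2.19% of all starts) was found in the upstream Uhrf1 window. The GATA motif AGATAA (11.2% of all starts) was found in none of them. These are matches of letters and do not show binding.

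Dnmt1 and Uhrf1, the pair for maintenance, were among the more abundant transcripts of both cell types. Dnmt1, on chromosome 9 from 20907206 to 20959888, had 12190, 12460 and 12120 scaled fragments in MPs and 13897, 14430 and 13485 in APL progenitors. All APL values lay above all MP values, but the difference was small, 1.14-fold (log2 fold change 0.18, standard error 0.07), and did not pass adjustment (adjusted p = 0.053 from limma). In FPKM Dnmt1 was at 68.1 ± 2.03 in MPs and 79.0 ± 2.70 in APL progenitors (SD, n = 3), and only 6.74% and 6.11% of listed genes had a higher mean. Uhrf1, on chromosome 17 from 56303337 to 56323486, had 7871, 7339 and 7696 scaled fragments in MPs and 7636, 8239 and 7635 in APL progenitors. The groups overlapped, and the log2 fold change of 0.04 had a 95% interval from −0.13 to 0.20 (adjusted p = 0.67 from limma). Its sign turned with the scaling of the libraries.

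Both genes are known to be expressed with DNA replication, so 17 replication genes were set beside them. Of these, Cdc45, which encodes a helicase factor, rose, Rrm1 and Top2a fell, and 14 were not called, with a median log2 fold change of −0.15. Pcna, the clamp that also binds DNMT1, was at 380 ± 42.6 FPKM in MPs and 309 ± 3.69 in APL progenitors. Mcm5, a helicase subunit, was at 122 ± 7.45 and 149 ± 8.28 FPKM. The proliferation marker Mki67 was at 43.3 ± 8.69 and 42.5 ± 5.52 FPKM. Relative to the mean log2 FPKM of the replication genes, Dnmt1 was at −0.217, −0.127 and −0.292 in MPs and at 0.108, 0.0999 and 0.00885 in APL progenitors. The groups were separated and differed by 0.284, or by 0.244 without MP library 3 (exact permutation p = 0.1, two-sided, the smallest that 3 against 3 libraries allow). The same ratio for Uhrf1 differed by 0.125, or by 0.0958 without MP library 3, and its groups were separated too (exact permutation p = 0.1).

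Dnmt3a and Dnmt3b, the enzymes for new methylation, both fell. Dnmt3a, on chromosome 12 from 3806980 to 3914443, had 1918, 1961 and 1787 scaled fragments in MPs and 523, 545 and 583 in APL progenitors. Every APL library was far below every MP library, and limma gave a log2 fold change of −1.78 ± 0.08 (SE, adjusted p = 1.6e-07 from limma). Dnmt3b, on chromosome 2 from 153649449 to 153687730, had 1539, 1629 and 1753 scaled fragments in MPs and 529, 563 and 636 in APL progenitors. It too was separated between groups, with a log2 fold change of −1.51 ± 0.09 (SE, adjusted p = 1.1e-06 from limma). Per length, Dnmt3b was the more abundant of the pair in both groups, at 13.3 ± 0.738 against 6.99 ± 0.352 FPKM in MPs and at 4.72 ± 0.464 against 1.90 ± 0.102 in APL progenitors. Of the genes tested, 11.4% had a lower log2 fold change than Dnmt3a and 12.9% a lower one than Dnmt3b.

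Dnmt3l changed the other way. It had 2.81, 1.90 and 7.21 scaled fragments in MPs, or 3, 2 and 8 fragments before scaling. In APL progenitors it had 252, 222 and 273 scaled fragments, or 214, 256 and 221 before scaling. It was thus close to the limit of detection in MPs and present in every APL library. In limma this was a log2 fold change of 5.79 ± 0.37 (SE, adjusted p = 1.5e-06 from limma), and 0.952% of genes tested had a larger increase. Since the MP libraries held 13 fragments in all, the fold is imprecise: the ratio of the 691 APL to the 13 MP fragments, corrected for scaling, was 61.0 with an exact 95% interval from 35.4 to 115, which covers counting error only. Without MP library 3 the log2 fold change was 6.23. The table gives Dnmt3l the same locus as Aire, chromosome 10 from 78030022 to 78063615, so fragments could have been divided between these genes. Aire, a regulator of self-antigen expression in the thymus, had at most 7 fragments before scaling in any MP library and at most 1 in any APL library. With both genes summed, an alternative chosen after the shared locus was seen, the log2 fold change was 5.19.

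The make-up of the DNMT3 transcripts therefore differed between the groups. In the sum of the FPKM of Dnmt3a, Dnmt3b and Dnmt3l, a grouping chosen after the values were seen, Dnmt3l made up 0.331%, 0.214% and 0.779% in MPs and 48.8%, 44.0% and 46.6% in APL progenitors. Dnmt3a made up 34.3% ± 2.30 in MPs and 15.4% ± 0.790 in APL progenitors (SD, n = 3), and Dnmt3b 65.3% ± 2.03 and 38.2% ± 1.84. The FPKM ratio of Dnmt3l to Dnmt3a was between 0.0061 and 0.0246 in MPs and between 2.70 and 3.24 in APL progenitors. The sum itself was 20.4 ± 0.563 FPKM in MPs and 12.4 ± 1.04 in APL progenitors. With Dnmt1 included, the sum of the 4 genes was 88.6 ± 2.17 and 91.4 ± 1.76 FPKM and overlapped between the groups (exact permutation p = 0.3). This overlap came from MP library 2, without which the groups were separated by a mean difference of 4.06 FPKM in place of 2.80. Dnmt1 accounted for 76.9% ± 0.682 of it in MPs and 86.5% ± 1.37 in APL progenitors (exact permutation p = 0.1).

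**Figure D2:**
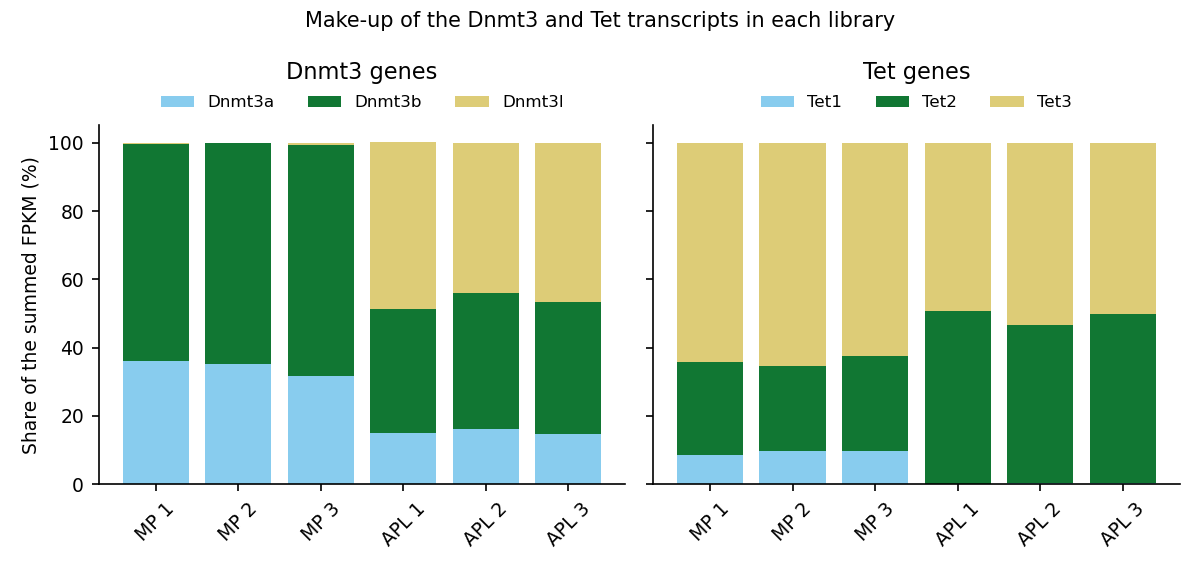
Share in percent of each gene in the summed FPKM of Dnmt3a, Dnmt3b and Dnmt3l (left) and of Tet1, Tet2 and Tet3 (right), with a stacked bar for each library. Dnmt3l takes 44.0% to 48.8% of the left sum in APL libraries and at most 0.779% in MP libraries, and Tet1 is below 1% of the right sum in APL libraries.

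Among the erasers, Tet1 fell, Tet2 rose and Tet3 did not pass. Tet1, on chromosome 10 from 62804570 to 62880014, had 479, 553 and 360 scaled fragments in MPs and 10.6, 11.3 and 9.88 in APL progenitors, or 9, 13 and 8 fragments before scaling. No APL library reached a level near that of the MP libraries, and limma gave a log2 fold change of −5.31 ± 0.21 (SE, adjusted p = 8.1e-08 from limma). Of the genes tested, 2.69% had a lower log2 fold change. The ratio of the 1491 MP to the 30 APL fragments, corrected for scaling, was 43.3 with an exact 95% interval from 30.2 to 64.4 for counting error. Tet1 was already the least abundant TET gene in MPs, at 1.16 ± 0.229 FPKM, and was at 0.0262 ± 0.00178 FPKM in APL progenitors.

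Tet2, the TET gene most often altered in myeloid malignancy, lies on chromosome 3 from 133463677 to 133544390. It had 1084, 1001 and 737 scaled fragments in MPs and 1796, 1443 and 1526 in APL progenitors, with no overlap between groups (log2 fold change 0.77, standard error 0.15, adjusted p = 0.0015 from limma). MP library 3 held the lowest value, and without it the log2 fold change was 0.60, still called. Tet3, on chromosome 6 from 83362374 to 83441678, had 2487, 2569 and 1692 scaled fragments in MPs and 1786, 1694 and 1519 in APL progenitors. The value of MP library 3 lay inside the APL range, and the log2 fold change of −0.41 (95% interval −0.76 to −0.06, adjusted p = 0.039 from limma) did not reach 1.5-fold. Without MP library 3 it was −0.60 and was called lower (adjusted p = 7.03e-05 from limma), so the call for Tet3 rests on that library. In MP library 3, Tet1, Tet2 and Tet3 differed from the mean of the other MP libraries by −0.51, −0.50 and −0.58 on the log2 scale, beyond the median of −0.14 for long transcripts there. Other members with long transcripts differed less in that library, Dnmt1 by −0.02, Dnmt3a by −0.12 and Dnmt3b by 0.15, and Tet1 was too low in APL progenitors to be placed in a length class. The part of transcript length in the Tet2 and Tet3 results was not tested.

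The shares of the TET genes within a library were separated between the groups. Tet2 made up 27.2%, 24.9% and 27.7% of the summed TET FPKM in MP libraries and 50.4%, 46.3% and 49.7% in APL libraries. Tet3 made up 63.9% ± 1.35 in MPs and 51.0% ± 2.16 in APL progenitors, and Tet1 9.44% ± 0.631 and 0.232% ± 0.0223 (SD, n = 3). Each of these comparisons had an exact permutation p = 0.1. The sum itself was 13.7, 13.9 and 9.36 FPKM in MPs and 12.6, 10.9 and 10.6 in APL progenitors, which overlapped (exact permutation p = 0.7). The overlap came from MP library 3: without it both MP sums lay above every APL sum, and the difference of APL from MP means went from −0.941 to −2.41 FPKM.

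Mbd2, on chromosome 18 from 70568292 to 70626131, was the reader followed here. It had 3005, 3030 and 3529 scaled fragments in MPs and 2359, 2405 and 2612 in APL progenitors. The groups did not overlap, with a log2 fold change of −0.37 ± 0.08 (SE, adjusted p = 0.0038 from limma), a 1.29-fold difference that stayed under the fold threshold. An adjusted p under 0.05 at any fold was reached by 7 of the 9 genes and by 67.0% of all genes tested.

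**Figure D3:**
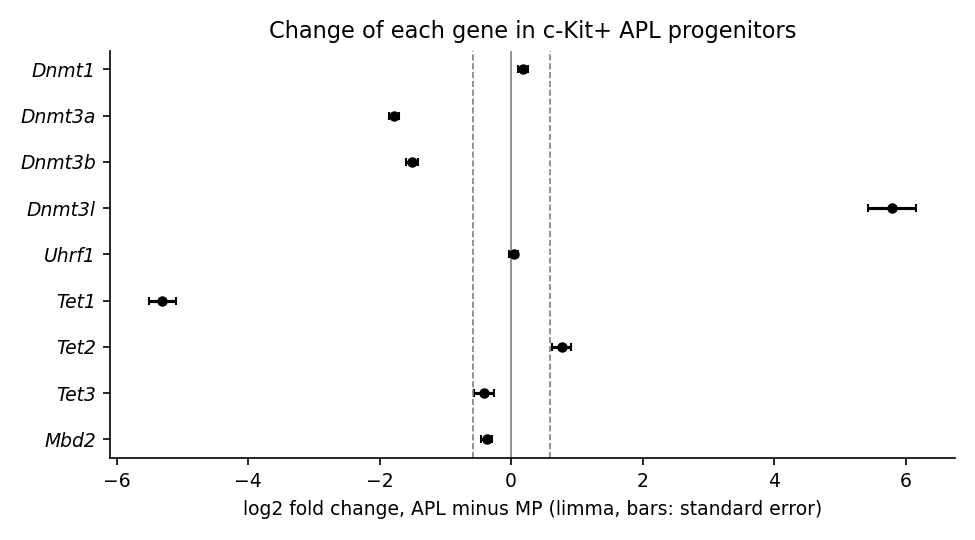
Log2 fold change of each gene in APL progenitors relative to MPs from limma, with bars for the standard error and dashed lines at a 1.5-fold change. Dnmt3l (5.79) and Tet1 (−5.31) lie at the ends, Dnmt3a, Dnmt3b and Tet2 lie beyond a dashed line, and the other 4 genes lie between the lines.

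Ordered by mean FPKM, the MP levels ran from Uhrf1 (76.5) through Mbd2 (69.4), Dnmt1 (68.1), Dnmt3b (13.3), Tet3 (7.89), Dnmt3a (6.99), Tet2 (3.26) and Tet1 (1.16) to Dnmt3l (0.0906). The libraries of neighbours overlapped for Mbd2 and Dnmt1 and for Tet3 and Dnmt3a, and the other neighbours were separate. In APL progenitors the order was Uhrf1 (79.4), Dnmt1 (79.0), Mbd2 (54.1), Tet3 (5.78), Dnmt3l (5.74), Tet2 (5.55), Dnmt3b (4.72), Dnmt3a (1.90) and Tet1 (0.0262). Uhrf1 and Dnmt1 could not be told apart there, and neither could each neighbour in the run from Tet3 through Dnmt3l and Tet2 to Dnmt3b.

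Genes that work with the family were taken from a list of 54, of which 50 were tested. Among these, 16 (32.0%) fell and 3 (6.0%) rose, beside 24.4% and 21.7% of all genes tested, and the median log2 fold change was −0.39 against −0.10. Of 10 other methyl-CpG binding genes, 2 fell and 8 were not called. Zbtb4, a zinc finger reader of methylated DNA, was among those that fell, from 0.805 ± 0.165 FPKM in MPs to 0.374 ± 0.00766 in APL progenitors (log2 fold change −1.06). Of 8 partners of maintenance and targeting, Cdca7, Trim28 and Zfp57 fell. Cdca7, which activates the remodeler HELLS, went from 90.4 ± 2.41 to 44.4 ± 2.15 FPKM (−1.02), and Trim28, a corepressor of zinc finger proteins, from 184 ± 9.86 to 120 ± 13.1 FPKM (−0.64). Zfp57, a guardian of imprinted methylation, was low in both groups, at 0.546 ± 0.0521 and 0.0563 ± 0.0145 FPKM.

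Of 11 genes for partners of TET proteins and removal of oxidized cytosine, 4 fell, namely Cxxc5, Gadd45g, Neil1 and Ogt, and Gadd45b was among the 2 called higher. Cxxc5, whose protein binds unmethylated CpG and restrains TET2, went from 10.4 ± 0.965 FPKM in MPs to 1.77 ± 0.299 in APL progenitors (log2 fold change −2.56). The stress-response paralogs Gadd45b and Gadd45g differed in direction, Gadd45b going from 7.55 ± 0.350 to 55.4 ± 1.85 FPKM (2.83) and Gadd45g from 5.90 ± 1.24 to 2.25 ± 0.589 FPKM (−1.41). Ogt, the O-GlcNAc transferase that binds TET proteins, went from 47.4 ± 4.45 to 28.9 ± 2.48 FPKM (−0.70), and the glycosylase gene Neil1 from 3.25 ± 0.701 to 1.55 ± 0.242 FPKM (−1.04).

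Of 10 genes of methyl donor and 2-oxoglutarate metabolism, Idh1, whose enzyme makes the TET cosubstrate 2-oxoglutarate, rose from 29.5 ± 0.253 to 90.8 ± 1.06 FPKM (log2 fold change 1.62). Mtr, methionine synthase, fell from 20.4 ± 0.946 to 10.3 ± 0.322 FPKM (−0.99), and Ahcy, which clears the product inhibitor of methyltransferases, fell from 114 ± 18.2 to 67.8 ± 6.33 FPKM (−0.74). Of 11 NuRD partners, 5 (45.5%) fell and none rose by the same limma test, beside 24.4% and 21.7% of all genes tested. At an unadjusted p under 0.05 with that fold, 5 were lower and 0 higher. Chd3, a remodeling ATPase of NuRD, had 1330, 1382 and 1296 scaled fragments in MPs and 25.9, 29.5 and 25.9 in APL progenitors (−5.57, adjusted p = 6.7e-09 from limma). The other NuRD genes that fell were Mta1 (−1.05), Mta3 (−1.04), Hdac2 (−0.73) and Mta2 (−0.60).

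**Figure D4:**
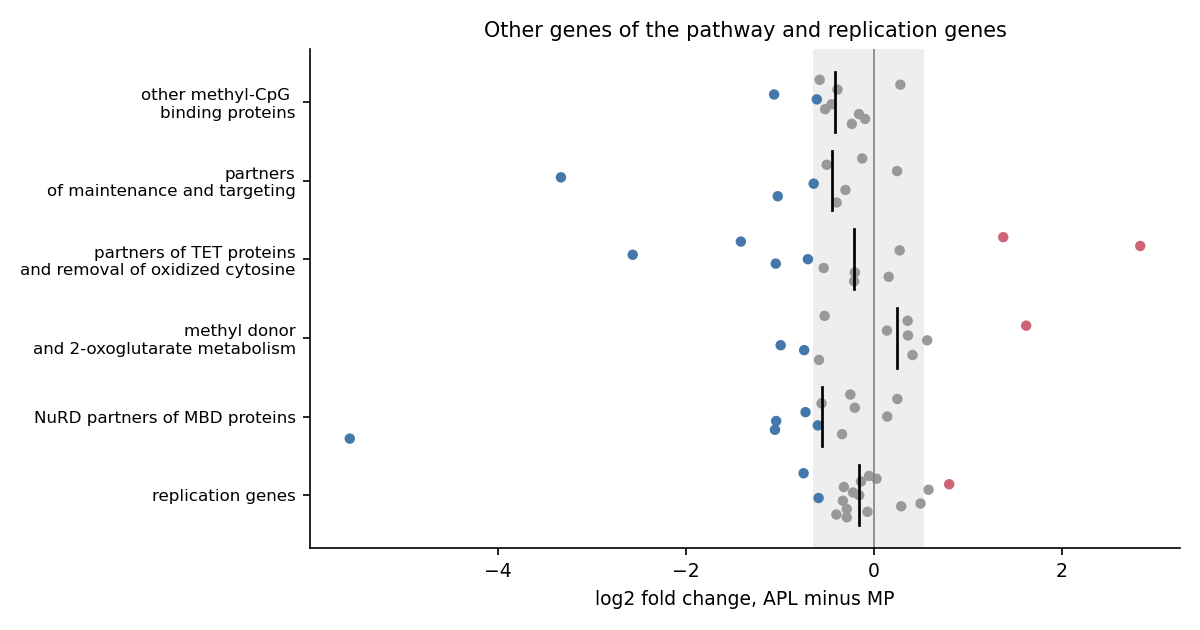
Log2 fold change in APL progenitors for the tested genes of each list, called higher (red), called lower (blue) or not called (grey), with a black line at the median of the list and a shaded band from the 25th to the 75th percentile of all genes tested (−0.63 to 0.53). The blue point at the far left is Chd3 (−5.57) and the red point at the far right is Gadd45b (2.83).

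Markers of other blood cell types differed between the sorts. All 8 erythroid markers tested fell, among them Gata1 and Klf1, and the summed FPKM of the 9 listed was between 2059 and 2579 in MP libraries and between 46.6 and 55.7 in APL libraries. Of 6 megakaryocytic markers, 4 fell, and the sum was between 62.1 and 95.4 in MPs and between 3.54 and 5.30 in APL progenitors. Of 8 granulocytic markers, 3 rose, 2 fell and 3 were not called, with a median log2 fold change of 0.18 (range −1.46 to 2.55). Among those that rose, Mpo was at 3549 ± 129 and 8354 ± 825 FPKM and Elane at 2719 ± 297 and 9386 ± 1008 FPKM. The sum was between 9417 and 11652 in MPs and between 23880 and 28490 in APL progenitors. It mostly follows these abundant genes and does not show the markers that fell. Of 6 monocytic markers, 4 fell and 1 rose (sums 73.1 to 88.5 and 21.4 to 22.5). Of 5 mast cell and basophil markers, 4 fell and 1 rose (113 to 138 and 48.2 to 55.3). Of the 4 lymphoid markers tested, 2 fell (sums of the listed genes 233 to 260 and 241 to 266). Cd3e and Cd3g were at the limit of detection and were not tested. Before scaling, Cd3e had 0 fragments in every MP library and 1 in APL library 3 only. Cd3g had 3, 1 and 7 fragments in MPs and 0 in every APL library. Neither was above 0.23 FPKM in any library, so the lymphoid sums came from the other listed genes. The part of these cell types in the results for Dnmt3a, Dnmt3b, Dnmt3l, Tet1 and Tet2 was not tested.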

How the data were processed

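RNA of 6 sorted libraries, 3 of normal MPs and 3 of c-Kit+ APL progenitors, was sequenced after TruSeq library preparation. The deposited table (16440 genes) holds FPKM, normalized for transcript length and mapped fragments, and a signal in scaled fragments that the authors multiplied by 1 factor per library. Between 86.6% and 89.1% of nonzero values were whole multiples of a step (tolerance 0.01 fragments plus rounding), too few for a count test. The submitters' processing notes name CASAVA 1.8, TopHat2 2.0.6 and mm10. The study's methods instead describe STAR on mm9 followed by HTSeq-count with DESeq2, and which route made the table is not given in the sources used here. Listed starts were 1 below the RefSeq start of GRCm38 for 7057 of 16336 matched genes and equal for 586, so 1 was added to them. Whole loci were shared with another gene for 2566 genes, among the 9 members only for Dnmt3l.

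The 14595 genes at 1 scaled fragment or more in 3 or more libraries were tested with limma 3.58.1 in R 4.3.3 (lmFit, then eBayes with trend) after the transform log2(scaled fragments + 1), a scale that understates changes of low genes. Calls needed a Benjamini-Hochberg adjusted p under 0.05 and a fold change over 1.5, the fold used in the study. Shares within a library were compared with two-sided exact permutation tests in scipy 1.17.1, over 16 quantities, of which none can pass 0.05 with 3 against 3 libraries. Length classes were 4 equal parts of the fragments per FPKM of 9268 genes with over 100 scaled fragments in every library. On simulated data with 14509 genes run, the gene test recovered 98 of 100 genes changed by 1 and 100 of 100 changed by 2 on the log2 scale, with 7 false calls. There, only genes well above the limit of detection in MPs were changed, and every gene had the same spread beyond counting error. No simulated library stood apart. The simulation therefore does not cover a gene as low as Dnmt3l in MPs or a library such as MP library 3. Start sequences are from RefSeq (GRCm38.p6), which held windows for all 8 members looked up.

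The members and all lists were chosen with earlier results of these data known. The text names all members, pathway genes called among the 15 largest changes at a mean of at least 1 FPKM, 3 replication genes, the first 2 of each marker list and the 3 genes nearest in profile to the member with the largest change. Rrm1, Top2a, Cdc45, Zfp57, Zbtb4, Mta2, Cd34, Fcgr3 and Aire were named after their values were seen. Some genes of the lists are counted there but not reported here by name. Dppa3, Wt1, Mat1a and Pax5, members of the lists, were not analysed here. Alternatives covered the filter, pseudocount, scaling, unit, weights, a block and each library left out. Figures were drawn with matplotlib 3.10.9.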

Additional observations from a re-analysis of the deposited data

How the results depend on the processing

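All 17 alternatives for single genes were run. For Dnmt3a, Dnmt3b, Dnmt3l, Tet1, Tet2, Dnmt1 and Mbd2, direction and call were the same in each, with log2 fold changes from −1.91 to −1.72, −1.64 to −1.45, 4.86 to 6.23, −5.49 to −3.30, 0.60 to 0.88, 0.05 to 0.25 and −0.50 to −0.30. The value of Tet1 nearest to 0 came from FPKM with a pseudocount of 0.1, which by construction compresses genes near it. Tet3 was called only without MP replicate 3, with 1 library left out ranging from −0.60 to −0.30. Uhrf1, never called, was at −0.046 with quantile normalization, −0.094 with libraries scaled to the same total and −0.094 with voom weights, and Mki67, never called, was at 0.012 with median ratio scaling and between −0.24 and 0.047 with 1 library left out. Over all genes the median moved from −0.10 to −0.23 on the log2 scale with the same total or voom. Of 17 replication genes, 2 were called higher with median ratio scaling and 2 with FPKM, against 1, and 1 was called lower with median ratio scaling, against 2. With 1 library left out, 1 to 2 were called higher and 1 to 2 lower; the cause was not tested. Ly6a was not called under 7 alternatives and Mpo under 1. Mta2 was not called under 4 alternatives and Trim28 and Rrm1 under 3 each, near the fold threshold. Pathway genes called lower numbered 13 to 23 and higher 2 to 4. At a fold change of 2, 2171 genes were higher and 2427 lower, against 3167 and 3558. With scaled fragments in place of FPKM every share kept its direction, the share of Dnmt3l within the DNMT3 genes differing by 18.0 in place of 46.0 percentage points, and the sum of the 4 DNMT genes turned to −477 scaled fragments, a unit that weights genes by length. In a fit with a replicate block for the library number, Dnmt3l was at 5.79 and Tet1 at −5.31 and no member changed its call; 6673 of 6725 calls over all genes were shared. Same-numbered libraries had correlations of deviations of 0.105, 0.0124 and 0.113, so the numbers were not taken to pair the samples. Depth limits Dnmt3l in MPs (13 fragments) and Tet1 in APL progenitors (30 fragments).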

Other observations

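The fragments per unit of FPKM, which scale with the transcript length that the deposited FPKM assumed for a gene, differed between groups for Dnmt3a. They were 268.9, 270.5 and 271.2 in MPs and 290.1, 289.6 and 290.5 in APL progenitors, a ratio of 1.07. Among 9268 genes with over 100 scaled fragments in every library, 0.302% had a larger ratio. For Dnmt1, Dnmt3b, Uhrf1, Tet2, Tet3 and Mbd2, the other members in this set, the ratio lay between 0.981 and 1.01. RefSeq lists Dnmt3a starts at the head of the locus and an internal start, and values of single transcripts were not analysed here.

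The genes whose profile over the 6 libraries lay nearest to that of Dnmt3l, by Euclidean distance on the log2 scale, were 2310030G06Rik (0.68), Dagla (0.72) and Gm6583 (0.78). Dagla, which encodes a lipase that makes an endocannabinoid, had 3.75, 1.90 and 5.41 scaled fragments in MPs and 287, 339 and 302 in APL progenitors. Such profiles mainly follow the difference between the groups, and 6 libraries in 2 groups do not resolve them further.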
